A study of Mus musculus with 33 samples.

Results

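The genes described here, 7 of the 32285 in each count matrix of a mouse single-cell RNA-seq series, belong to the basophil and type 2 response and were followed through every cell class, tissue and biotin sort. They are the basophil and mast cell proteases Mcpt8, Prss34 and Cpa3, the histamine enzyme Hdc, and the cytokines Il4, Il13 and Il6, and they were chosen by symbol, with earlier results of these data known. The study used SAMENT, in which injected tumour cells carry an enzyme that places biotin on their neighbours, here with its substrate supplied overnight. Tissues were then dissociated with collagenase, and cells with and without biotin were sorted apart. After intracardiac injection there were 8 groups of 4 samples, biotin positive and biotin negative cells from bone (femurs and tibias), brain, liver and lung. A second injection, named only IIA in the labels, gave bone alone, as 1 pooled matrix that hashtags split into 6 positive and 6 negative samples, numbered 1 to 6 within each sort. Every group thus carried tumour cells and the labelling substrate, and no tumour-free group was analysed here. The labels give no strain, age, tumour line or enzyme construct, and they do not say that numbered samples came from separate animals, so the p-values below measure the spread between these samples.

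Basophils are rare blood granulocytes that, like mast cells, carry the high-affinity IgE receptor and release histamine, proteases and cytokines when it is engaged. Mcpt8 and Prss34 encode serine proteases stored in basophil granules, while Cpa3 encodes a carboxypeptidase shared by mast cells and basophils. Hdc encodes histidine decarboxylase, which makes histamine, and neutrophils and other myeloid cells can also express it. Il4 and Il13 encode the type 2 cytokines made by T helper cells, innate lymphoid cells, mast cells and basophils. Il6 encodes a cytokine of acute inflammation made by macrophages, stromal cells and many others.

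The start regions of the 3 proteases are shown because a GATA factor, Gata2, is one of the genes used below to find basophils and because the proteases were found in the same cells. Each sequence is from RefSeq on GRCm38.p6, runs 5′ to 3′ on the gene's own strand from 250 bases before to 50 bases after the annotated start, and has the letters AGATAA in capitals. The first lies at chr14:56085148-56085447 on the minus strand, the second at chr17:25298144-25298443 on the plus strand, and the third at chr3:20242132-20242431 on the minus strand.
Mcpt8: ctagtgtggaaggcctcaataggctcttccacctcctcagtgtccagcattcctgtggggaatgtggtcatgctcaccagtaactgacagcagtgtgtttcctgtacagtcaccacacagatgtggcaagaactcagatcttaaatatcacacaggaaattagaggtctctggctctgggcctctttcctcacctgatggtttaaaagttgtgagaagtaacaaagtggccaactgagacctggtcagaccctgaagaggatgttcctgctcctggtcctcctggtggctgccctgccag
Prss34: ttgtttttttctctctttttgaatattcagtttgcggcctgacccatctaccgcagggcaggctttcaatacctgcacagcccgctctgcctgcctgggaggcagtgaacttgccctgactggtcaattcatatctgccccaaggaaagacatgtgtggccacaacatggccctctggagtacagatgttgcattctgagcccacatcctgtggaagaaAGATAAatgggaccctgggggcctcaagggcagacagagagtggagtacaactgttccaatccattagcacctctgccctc
Cpa3: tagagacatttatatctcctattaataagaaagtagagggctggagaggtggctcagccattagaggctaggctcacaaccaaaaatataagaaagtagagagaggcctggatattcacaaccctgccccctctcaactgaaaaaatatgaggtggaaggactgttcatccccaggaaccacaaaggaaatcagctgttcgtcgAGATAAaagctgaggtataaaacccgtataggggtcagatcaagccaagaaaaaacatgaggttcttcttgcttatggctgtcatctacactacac
AGATAA was searched on both strands. It stood 31 bases before the start of Prss34, 46 bases before that of Cpa3 and 81 bases before that of Il13, each on the gene's own strand, and it was not in the windows of Mcpt8, Il4, Il6 and Hdc. Of all 32851 mouse start regions of this length in the table, 3672 (11.2%) held it. TGACTCA, the AP-1 letters, matched only in Il6, on the opposite strand 249 bases before the start, against 5.2% of all start regions. TTGCGCAA, the C/EBP letters, matched in none of the 7 genes, against 0.183% of all, and no match overlapped another. A match describes the letters of the sequence and nothing about a factor. Il4 and Il13 are neighbours on chromosome 11, with 12654 bases and 0 other annotated genes between them (GENCODE positions on GRCm38).

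After filtering, the intracardiac samples held 4515 positive and 11482 negative bone cells, 2206 and 7459 brain cells, 3094 and 8684 liver cells, and 7342 and 10584 lung cells, with 482617 to 44834665 UMIs (counted RNA molecules) a sample. The IIA samples held 249 to 2140 positive and 2322 to 3480 negative cells, and the smallest sample of all was liver positive replicate 4, with 94 cells. Intracardiac samples with different numbers shared 341 cell barcodes over 384 sample pairs, and those with the same number shared 0 over 112 pairs. The intracardiac libraries read the 3′ end and the pooled IIA library the 5′ end, so levels are not compared between the 2 experiments. Levels are CPM, the usual scaling of a gene's UMIs by the UMIs of all genes in the same cells. A level over all kept cells depends both on how many cells carry a gene and on its UMIs in each of them, so counts of cells and levels within clusters are given beside it where they were measured.

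Basophils were looked for with 6 other genes, so that the 7 described here played no part in the choice. A cell was called basophil marker positive when it held UMIs of at least 3 of Gata2, Ms4a2 and Fcer1a (2 chains of the IgE receptor), Cd200r3, Cyp11a1 and Grm6. There were 131 such cells of 55366 (0.237%) in the intracardiac samples and 156 of 22362 (0.698%) in the IIA samples. Of these, 116 lay in an intracardiac cluster led by Clu, Gata2 and Krt18, and 141 in an IIA cluster led by Gata2, Itga2b and Car2, neither of which met the markers' rule for a name. Their median depth was 5781 UMIs against 5252 in the other intracardiac cells, and 3998 against 3290 in the IIA cells. Of the 131, 9 were among the 2768 intracardiac cells of highest doublet score, a set that holds 5% of all intracardiac cells.

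The RNA of the 3 proteases was concentrated in these few cells. They held 0.251% of all intracardiac UMIs but 88.6% of the Mcpt8 UMIs (9818 of 11076), 97.9% of the Prss34 UMIs (14808 of 15130) and 86.8% of the Cpa3 UMIs (2764 of 3184). In the IIA samples they held 0.606% of all UMIs, with 87.1% of Mcpt8, 98.2% of Prss34 and 84.9% of Cpa3. Within the marker positive cells Mcpt8 stood at 9215 CPM (95% exact Poisson interval 9034 to 9399) in the intracardiac samples and 7942 CPM (7739 to 8149) in the IIA samples, intervals that cover counting error only. A single bone cell carried 690 Mcpt8 UMIs and a single brain cell 992 Prss34 UMIs, and 14 cells held 50% of all intracardiac Mcpt8 UMIs. Most of these levels therefore rest on a small number of strongly expressing cells. Mcpt8 and Prss34 were found together in 79 of the 131 cells, and 77 of those also had Cpa3. In the IIA samples, 107 of 156 had both and 100 had all 3.

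Of the intracardiac marker positive cells 80.2% had a UMI of Mcpt8 (95% exact binomial interval 72.3 to 86.6), 63.4% Prss34, 87.8% Cpa3, 95.4% Hdc, 63.4% Il6, 39.7% Il4 and 9.16% Il13. Among B cell-like cells, which should lack these products and had a median of 2198 UMIs, the shares were 0.201%, 0.261%, 0.0603%, 2.84%, 0.261%, 0.181% and 0.0201% in the same order. Cells with at least 2000 UMIs, 125 of the marker positive ones, were then thinned to 2000. Their marker positive shares were 74.4% for Mcpt8, 58.4% for Prss34, 81.6% for Cpa3, 84.8% for Hdc, 44.0% for Il6, 14.4% for Il4 and 4.0% for Il13. All 7 shares in marker positive cells thus lay above those of the B cell-like cells, also at equal depth. In the IIA marker positive cells the shares were 82.7% for Mcpt8, 70.5% for Prss34, 80.1% for Cpa3, 84.0% for Hdc, 37.8% for Il6, 31.4% for Il4 and 5.13% for Il13. The IIA B cell-like cells, with a median of 1468 UMIs, had 0.319% for Mcpt8, 1.49% for Hdc and 0 of 940 cells with Il4, Il6 or Il13.

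**Figure D1:**
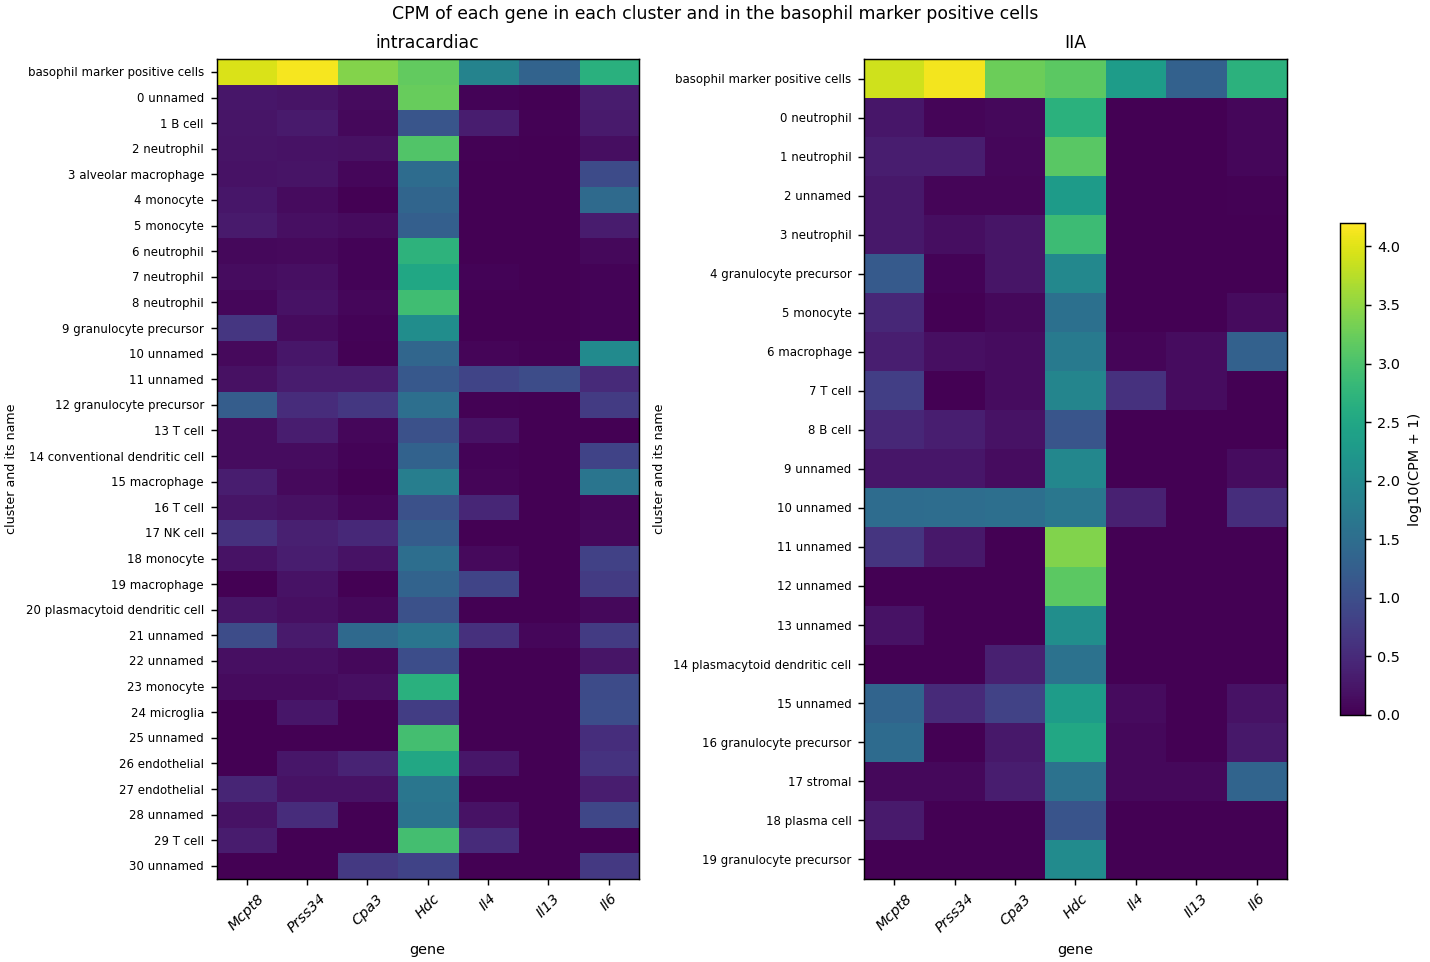
Colour gives log10(CPM + 1) of each of the 7 genes (columns) in the basophil marker positive cells (top row) and in every cluster outside them (other rows, with the cluster's number and name), intracardiac at left and IIA at right. The proteases and the cytokines are highest in the top row, Hdc runs through the neutrophil clusters, and Il6 is also seen in clusters of macrophages and monocytes.

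A few cells carried another protease set. In the brain, 4 marker positive cells (2 in negative replicate 1, 1 in negative replicate 2 and 1 in positive replicate 3) had at least 2 of the mast cell proteases Cma1, Tpsb2, Tpsab1 and Mcpt4, with 331, 201, 15 and 544 UMIs of them. These 4 cells held 227 Cpa3 UMIs, 47 Hdc UMIs, 5 Prss34 UMIs and 0 Mcpt8 UMIs. The other 127 intracardiac marker positive cells had 0 UMIs of all 4 mast cell proteases. One of the 4 cells, with 93 Cpa3 UMIs, is the whole Cpa3 signal behind the highest intracardiac Cpa3 level, 70.0 CPM in brain positive replicate 3.

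Outside the marker positive cells, Mcpt8 was also found in granulocyte precursors. The intracardiac precursor cluster led by Ctsg, Mpo and Elane held 814 Mcpt8 UMIs (16.6 CPM), and 23.3% of its 1545 cells had one, at a median depth of 27969 UMIs. A second precursor cluster, led by Fcnb, Camp and Hist1h2ap, stood at 3.62 CPM. In the IIA samples the precursor clusters led by Prtn3, Elane and Gm11505 and by Hspa1b and Hspa1a stood at 14.7 and 28.2 CPM, with Mcpt8 in 20.5% and 31.7% of their cells. The first of these had 3 Prss34 UMIs in all, against 423 of Mcpt8. The second lay only in positive samples. Prss34 in the intracardiac Ctsg cluster came to 116 UMIs, all of them in 12 of its 1545 cells. Cpa3 outside the marker positive cells was highest in the clusters that held most of those cells, with 155 UMIs (26.1 CPM) in the intracardiac one and 161 (33.6 CPM) in the IIA one.

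Hdc was found mainly in another cell type. Neutrophil-like and precursor clusters together held 62.6% of the intracardiac Hdc UMIs, an unnamed cluster led by Il1b, Acod1 and Ccrl2 held 27.4%, and the marker positive cells only 1.49% (1664 of 111390). Of the named granulocytes, 86.1% had an Hdc UMI, against 2.84% of the B cell-like cells; at 2000 UMIs a cell the shares were 56.3% and 2.07%. The level differed along the granulocyte clusters, from 32.6 CPM in precursors led by Ctsg to 114.7 in those led by Fcnb, then 314 in neutrophils led by Ltf, 510 in those led by Stfa3, 818 in those led by Cxcr2 and 1168 in those led by Retnlg. The unnamed Il1b cluster stood at 1705 CPM, and the marker positive cells at 1562 (1488 to 1639). The cells with the most Hdc relative to all UMIs were thus of both kinds, and the neutrophils far outnumbered the marker positive cells. Smaller populations had Hdc too. An unnamed cluster led by Cxcl3 stood at 870.5 CPM, 120 cells led by Il2rb, Trbc1 and Gzmb at 872 CPM, monocytes led by Ace, Adgre4 and Krt80 at 457 CPM, and liver endothelial cells led by Clec4g at 381 CPM in negative (330 to 438) and 286 CPM in positive samples (248 to 327).

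Il4 and Il13 were scarce, Il6 was less so, and the 3 came from different sources. The intracardiac samples had 203 Il4 UMIs in all, 39.9% in marker positive cells, 17.2% (35 UMIs in 29 cells) in an unnamed lymphocyte cluster led by Icos, Il7r and Rora, and 20 UMIs in 14 macrophage-like cells led by Ptgds. Of 74 Il13 UMIs, 62.2% (46 UMIs) lay in 16 cells of that same Icos cluster, and 29.7% in marker positive cells. Of those 16 cells 14 had Gata3 and 8 had Il1rl1, the type 2 transcription factor and the receptor for IL-33, and 3 had the T cell receptor chain Cd3e. Il4 and Il13 were seen together in 4 of the 131 marker positive cells. In the IIA samples 88.2% of 170 Il4 UMIs and 73.7% of 19 Il13 UMIs were in marker positive cells, but 35 of the Il4 UMIs came from 1 cell of positive replicate 2.

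Il6 had several sources. Of its 4473 intracardiac UMIs 10.9% lay in marker positive cells and 46.8% in 1 large unnamed cluster led by Arg1, Pf4 and Spp1 (99.9 CPM). A further 16.3% lay in monocytes led by Saa3 (27.5 CPM) and 7.15% in macrophages led by Cd5l, Vcam1 and Clec4f (41.2 CPM). Of that unnamed cluster's 2092 Il6 UMIs, 1625 came from lung positive replicate 1, and all but 14 of the 320 in the Cd5l cluster came from liver positive replicate 2. In the IIA samples marker positive cells held 56.9% of 647 Il6 UMIs, macrophage-like cells 24.3% and stromal cells led by Col3a1 14.7%. The Il6 of the intracardiac samples was thus uneven between samples.

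Genes with a like pattern over clusters were named by a fixed rule, the 3 with the highest Pearson r of log CPM over 31 intracardiac or 20 IIA clusters, which share libraries. In the intracardiac samples Mcpt8 was most like Prss34 (r = 0.96), Ms4a2 (0.94) and Fcer1a (0.93), and Cpa3 was most like Fcer1a (0.95), Prss34 (0.94) and Csrp3 (0.92). Hdc was most like Cxcr2 (0.94), the chemokine receptor of mature neutrophils, then Snai1 and G0s2 (0.92 each). Il6 was most like Anxa4 (0.81) and Il4 like Tubb4a (0.88), weaker likenesses over sparse counts. In the IIA samples Mcpt8 was most like Nudt12 and Cpa3 (0.86 each), without Prss34 among its 3, and Il4 like Cd59b (0.94). There Prss34 was most like Cd200r3 (0.91) and Cpa3 (0.88), Hdc like Dgat1 (0.93), Cpa3 like Slc22a3 (0.92) and Il6 like Sphk1 (0.95).

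Marker positive cells were unevenly spread over tissues. Counted by replicate, there were 16, 10, 15 and 10 in bone negative and 16, 3, 4 and 3 in bone positive samples, and 16, 1, 0 and 10 in brain negative but 0, 0, 1 and 0 in brain positive samples. The brain positive cell, that of brain negative replicate 2 and 2 of the 16 in brain negative replicate 1 were the cells with mast cell proteases. Liver negative samples had 5, 0, 6 and 2, liver positive samples 11, 0, 0 and 0, and in lung 2 cells of positive replicate 1 were the only ones. Bone was the only tissue with such cells in all 8 samples. As a share of cells, positive and negative samples had 0.521% ± 0.241 and 0.457% ± 0.148 in bone (SD, n = 4 each). The shares were 0.0806% ± 0.161 and 0.300% ± 0.355 for brain, 0.225% ± 0.450 and 0.173% ± 0.159 for liver, and 0.0163% ± 0.0325 and 0 for lung. In two-sided exact permutation tests none of the 4 differences passed (adjusted p of 0.643 in brain and 1 in the others; the smallest raw p possible is 0.0286). In IIA bone the share was 0.445% ± 0.411 in positive and 0.789% ± 0.332 in negative samples (n = 6 each), with an exact permutation p of 0.143 and an adjusted p of 0.643 over the 5 tests. Among cells with at least 2000 UMIs, each thinned to 2000, the IIA difference was 0.539 percentage points in the same direction. Its exact permutation p was 0.0108, not adjusted over the tests. Shallower cells were left out, and median depth was 2532 to 3991 UMIs in negative and 3641 to 10766 in positive samples.

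Mcpt8, by replicate, stood at 13.1, 11.1, 69.7 and 21.6 CPM in bone negative and 107.7, 4.64, 19.8 and 35.5 CPM in bone positive samples. In brain it stood at 64.3, 0, 0.946 and 33.0 CPM in negative and 14.95, 0, 3.01 and 0.457 CPM in positive samples. In liver it stood at 63.0, 0.630, 44.1 and 18.01 CPM in negative and 70.7, 0.713, 4.84 and 0 CPM in positive samples. All 8 lung samples were at or under 3.53 CPM, below every bone sample, and in no tissue did the sorts separate.

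Prss34 showed the same unevenness. Bone negative samples had 19.2, 18.2, 74.5 and 35.2 CPM and bone positive samples 133.4, 0.442, 4.70 and 57.1 CPM. Brain negative samples had 136.8, 0.264, 1.32 and 67.8 CPM and brain positive samples 0.650, 0.623, 0 and 0.228 CPM. Its highest and some of its lowest levels were thus found within single groups, and the brain positive samples had at most 3 Prss34 UMIs each. Liver samples ranged from 0 to 88.4 CPM and lung samples from 0 to 6.52 CPM. Where a level is 0 the count allows up to 3 UMIs, which is 6.22 CPM in the shallowest sample, liver positive replicate 4, and 2.26 CPM in brain positive replicate 3.

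Cpa3, the protease shared with mast cells, ranged from 4.44 to 19 CPM in bone negative samples (mean 9.85 ± 6.95) and from 2.03 to 33.1 CPM in bone positive samples (10.9 ± 14.9; SD, n = 4 each). Brain negative samples had 26.1, 3.56, 2.84 and 10.5 CPM, and brain positive samples 1.95, 0, 70.0 and 0 CPM. In liver the highest values were 7.62 CPM in negative and 10.0 CPM in positive samples, and in lung 1.47 and 1.85 CPM. The groups overlapped in every intracardiac tissue.

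**Figure D2:**
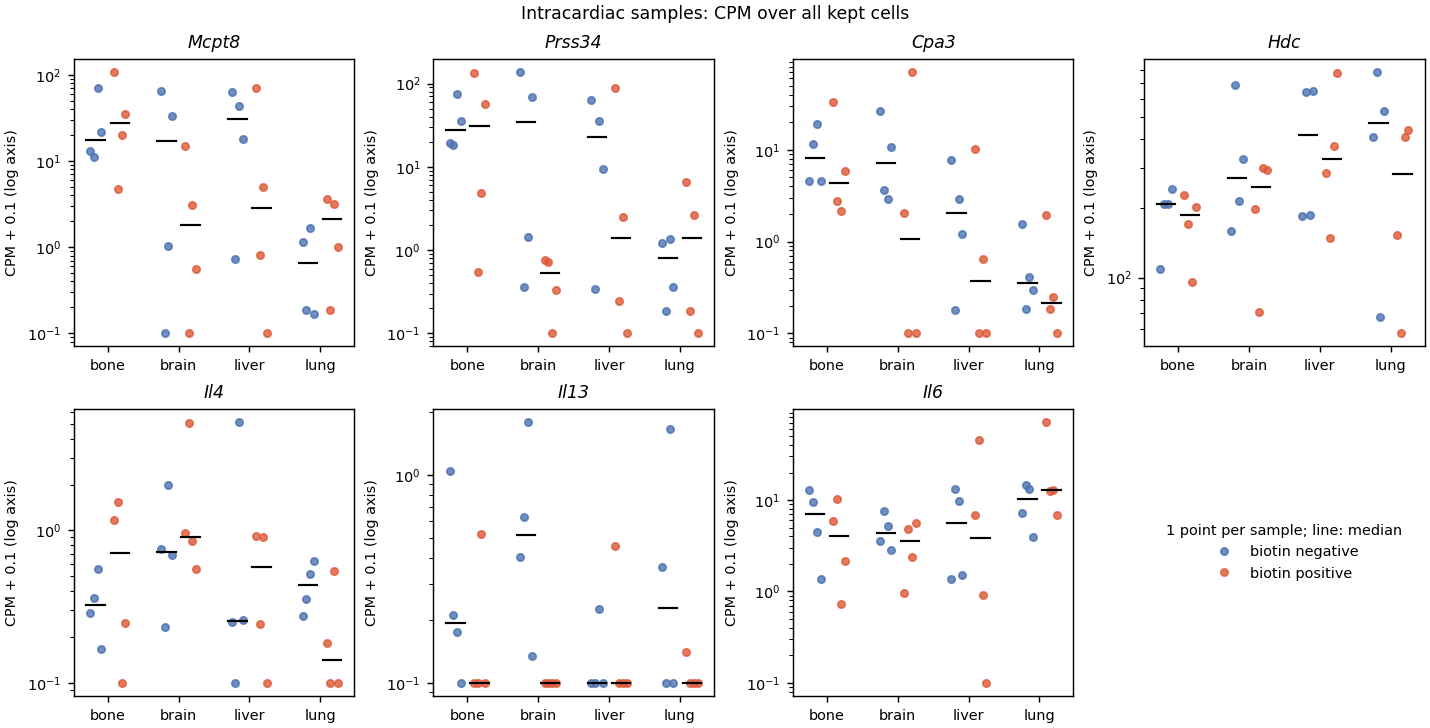
CPM over all kept cells (log axis, 0.1 added so that 0 can be drawn) of the 7 genes in each intracardiac sample, biotin negative in blue and positive in red, with the group median as a line. The 3 proteases vary from sample to sample within a group by more than between the sorts, and are low in lung.

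Hdc, found in neutrophils, was detected in every sample. In bone it stood at 109.2, 209.7, 209.0 and 243.0 CPM in negative and 229.7, 171.1, 95.8 and 203.7 CPM in positive samples. In lung it ranged from 67.6 to 781.9 CPM in negative and from 57.2 to 440.3 CPM in positive samples, while brain and liver samples together lay between 71.0 and 777.0 CPM. No tissue separated the sorts. In order of the mean, bone negative samples stood at 192.7 ± 57.9 CPM, brain negative at 348.1 ± 238.9, liver negative at 415.2 ± 263.7 and lung negative at 447.3 ± 297.2 CPM (SD, n = 4 each), and no neighbours in this order differed beyond their spread.

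Il6 lay between 0 and 14.4 CPM in 30 of the 32 intracardiac samples. The others were lung positive replicate 1, at 71.8 CPM against 12.5, 12.9 and 6.81 in the other lung positive samples, and liver positive replicate 2, at 45.2 CPM against 6.71, 0.807 and 0. In both, 1 cluster held most of the Il6, 92.9% in the large unnamed cluster in that lung sample and 96.5% in the Cd5l cluster in that liver sample. Il4 was at or under 5.07 CPM in every intracardiac sample and Il13 at or under 1.70 CPM. Il13 was at 0 in the 4 brain positive samples, where 3 UMIs would be 0.650 to 2.26 CPM, and at 0.304, 0.527, 1.70 and 0.0349 CPM in the 4 brain negative samples, 3 of which lie below every one of those limits.

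Over all kept cells of each intracardiac tissue, no member that could be tested passed the threshold between the biotin sorts. Counts summed per sample were compared by edgeR's quasi-likelihood test with Benjamini-Hochberg adjustment over all genes that passed its low-count filter. In bone this called 0 of 12533 genes (0%), none of 5 members among them, although 983 genes and 0 members reached an unadjusted p under 0.05, and 53 genes and 0 members were called by DESeq2. In brain it called 339 of 11064 genes (3.06%), in liver 0 of 11854 (0%) and in lung 2254 of 12331 (18.3%), and 0 of 4 members tested in each, none with an unadjusted p under 0.05. DESeq2 called 0 members in those tissues too. The log2 fold changes of positive against negative samples had wide errors, such as 0.32 (SE 0.89) for Mcpt8 in bone, -2.56 (1.63) for Mcpt8 in brain, 1.66 (1.19) for Prss34 in lung and 1.15 (0.71) for Il6 in lung. Without positive replicate 1 the sign turned for Mcpt8 in bone (-0.60) and for Il6 in lung (-0.035), and the replicate block gave -0.060 for Mcpt8 in bone. Il4 and Il13 passed the filter in no tissue, Prss34 failed it in brain and Cpa3 in liver and lung. In simulated bone counts this design recovered 66% of genes changed 4-fold and 8% of those changed 2-fold. These were drawn at random from all genes tested. The recovery therefore does not describe the proteases, whose errors in bone ran from 0.88 (Cpa3) to 1.18 (Prss34).

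Whether the biotin effect differed between tissues was tested as an interaction, each tissue against the mean of the other 3. None of the 6 members tested was called, against 0% of 13963 genes for bone and for liver, 0.301% for brain and 2.54% for lung. The largest was Prss34 in brain, where the biotin effect was lower than elsewhere by a log2 difference of -7.70 (SE 2.39; unadjusted p = 0.00327, adjusted p = 0.174 by edgeR's quasi-likelihood test), and DESeq2 gave -7.71 with an adjusted p of 0.0118. Without the marker positive cells the difference was -0.18.

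In IIA bone, where each group had 6 samples, 4 of the 5 members tested were lower in the biotin positive sort. Of 12625 genes tested there 2923 were lower (23.2%) and 3412 higher, so the members' count must be read against a broad change. Mcpt8 had a lowest, median and highest level of 21.5, 73.5 and 111.5 CPM in negative and 5.10, 18.01 and 41.1 CPM in positive samples. Its groups overlapped, with 4 of the 6 positive samples below every negative one, and edgeR's quasi-likelihood test gave a log2 fold change of -1.99 (SE 0.51, adjusted p = 0.00657).

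Prss34 fell from 44.8, 127.1 and 177.8 CPM (lowest, median, highest) in negative to 0.521, 12.6 and 54.2 CPM in positive samples. The groups overlapped by 1 positive sample, the other 5 lying below every negative one. Its log2 fold change by edgeR's quasi-likelihood test was -2.96 (SE 0.77, adjusted p = 0.00698). Cpa3 had 8.34, 19.5 and 27.4 CPM in negative and 0.772, 3.87 and 5.55 CPM in positive samples. These groups did not overlap, which held for 30.6% of all genes tested, and the log2 fold change was -2.56 (SE 0.42, adjusted p = 0.000376). Each of the 3 proteases kept its call in all 12 fits that left out 1 sample.

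**Figure D3:**
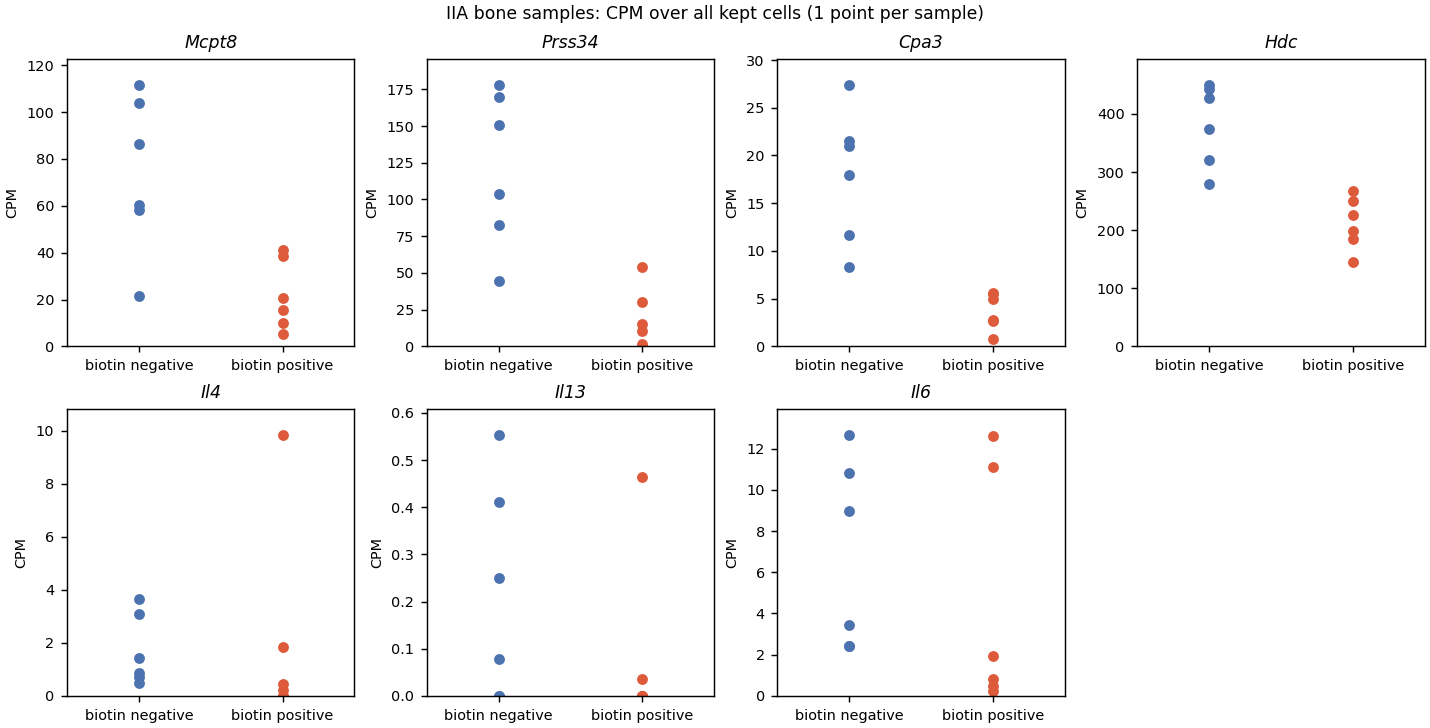
CPM over all kept cells of the 7 genes in the 6 biotin negative (blue) and 6 positive (red) IIA bone samples, 1 point a sample. The positive points of Cpa3 and Hdc lie below all negative ones, as do 5 of the 6 for Prss34 and 4 of the 6 for Mcpt8, Il4 and Il6. For Il13 2 negative samples are at 0.

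Hdc was lower as well, with 279.2, 400.9 and 449.5 CPM (lowest, median, highest) in negative and 144.7, 212.2 and 266.8 CPM in positive samples. The groups did not overlap, and the log2 fold change was -1.09 (SE 0.18, adjusted p = 0.000376 by edgeR's quasi-likelihood test). Il6 had 2.44, 6.19 and 12.7 CPM in negative and 0.261, 1.39 and 12.6 CPM in positive samples, with 4 of the 6 positive samples below every negative one, and was not called (-0.81, SE 0.80, adjusted p = 0.421). Il4 had 0.474, 1.16 and 3.67 CPM in negative and 0, 0.339 and 9.86 CPM in positive samples, 4 of the 6 again below every negative one. Il4 and Il13 did not pass the low-count filter, and the highest Il4 value is the sample in which 1 cell held 35 of the 36 UMIs.

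The IIA protease differences changed when the marker positive cells were left out. Without them Cpa3 was no longer called (-0.51, adjusted p = 0.367), Prss34 no longer passed the filter, and Mcpt8 turned to higher in the positive sort (1.57, SE 0.37, adjusted p = 0.00378). Hdc kept its difference (-1.11, adjusted p = 0.000361 by edgeR's quasi-likelihood test). Granulocyte precursors, which also had Mcpt8, were 50.8% ± 18.5 of granulocytes in positive and 4.05% ± 1.84 in negative samples (SD, n = 6 each), and their part in the Mcpt8 result was not tested. With cells kept only where the first hashtag had 10 times the counts of the second, Mcpt8 missed the threshold (-1.66, adjusted p = 0.0712), and Prss34 (-2.67, 0.0282), Cpa3 (-2.32, 0.00928) and Hdc (-0.99, 0.00101) kept it.

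**Figure D4:**
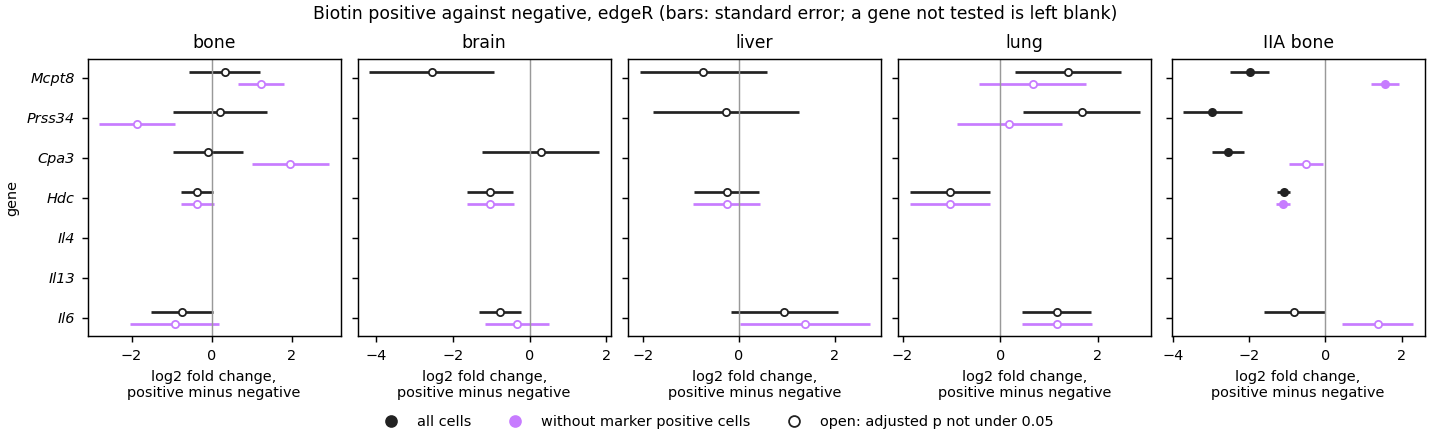
Log2 fold change of biotin positive against negative samples from edgeR, with its standard error, in each tissue, over all cells (black) and without the basophil marker positive cells (violet). Filled points passed the adjusted p threshold, which among all cells happened only in IIA bone, and there the Mcpt8 point changes side when the marker positive cells are left out.

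The Hdc difference was then followed into cell classes. In IIA granulocytes, that is neutrophil and precursor clusters together, Hdc had 509.6, 629.6 and 748.4 CPM (lowest, median, highest) in negative and 142.6, 205.6 and 345.6 CPM in positive samples, with no overlap, which held for 43% of the genes with at least 10 UMIs in the class. Its log2 fold change was -2.13 (SE 0.20, adjusted p = 1.2e-07 by edgeR's quasi-likelihood test), while Mcpt8 rose in the same class from a median of 2.62 to 15.2 CPM (1.81, SE 0.29, adjusted p = 3.43e-05). In this class 80.1% of all genes tested were called, so both calls are near the background. Within single clusters the sorts lay closer in Hdc, at 484 ± 46.1 CPM in negative and 483 ± 157 in positive samples for neutrophils led by Ltf, 1324 ± 176 and 1137 ± 172 for those led by Cstdc4, and 81.3 ± 12.5 and 112 ± 27.2 for precursors led by Prtn3, differences that were not tested. Neutrophil clusters were 50.6% ± 5.15 of cells in negative and 17.6% ± 8.23 in positive samples, and 64.5% ± 7.61 and 37.2% ± 7.35 with 3 unnamed clusters added, led by Fcnb, Acod1 and Tnfaip6. These held fewer than 3 neutrophil markers among their leading genes and were added after seeing the data. Their part in the Hdc difference was not tested. With these 3 unnamed clusters added to the class, Hdc missed the threshold (-0.79, adjusted p = 0.0976) and Mcpt8 did not (2.04, adjusted p = 6.24e-05).

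**Figure D5:**
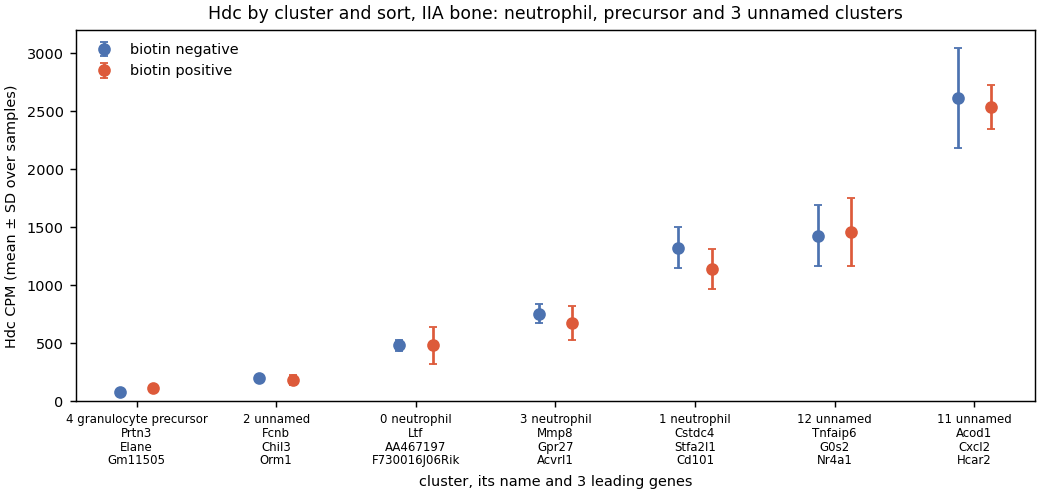
Hdc level (CPM, mean ± SD over samples) in the neutrophil and precursor clusters of IIA bone with a level in both sorts and in 3 unnamed clusters led by Fcnb, Acod1 and Tnfaip6, biotin negative in blue and positive in red, ordered by level. The clusters differ from 81.3 to over 2500 CPM, and within each the sample ranges of the sorts overlap.

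In intracardiac granulocytes edgeR's quasi-likelihood test without the replicate block called neither Hdc nor any other member in any of the 4 tissues, and 0% of all genes in each, although in bone 1457 genes reached an unadjusted p under 0.05 and 122 were called by DESeq2. In bone Hdc stood at 262.5, 248.1, 238.6 and 260.1 CPM in negative and 259.3, 255.4, 98.1 and 198.7 CPM in positive samples, of which the last 2 positive samples lie below all negative ones. Mcpt8 in bone granulocytes had 2.996, 3.55, 3.89 and 5.06 CPM in negative and 5.70, 7.03, 17.6 and 8.89 CPM in positive samples, groups that did not overlap, which held for 6.47% of the genes with at least 10 UMIs in the class. Its log2 fold change of 1.08 (SE 0.33) was not called by edgeR's quasi-likelihood test (adjusted p = 0.350), but was with the replicate number as a block (1.07, adjusted p = 0.0389). Il6 in these cells had 10.99, 2.87, 0.880 and 0.513 CPM in negative and 1.68, 0.586, 0.148 and 0 CPM in positive samples, which overlapped. It too was called with the block (-2.74, adjusted p = 0.0156, against -2.55 and 0.376 without it). The fit with the block called 6.77% of all genes in this class, 4.58% higher and 2.18% lower. Precursors were 26.2% ± 3.28 of these granulocytes in negative and 40.9% ± 15.8 in positive samples, and their part in the difference was not tested.

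In mononuclear phagocytes, the macrophage, microglia and monocyte clusters together, Hdc was lower in the biotin positive sort of brain and lung. In brain it had 43.4, 129.2, 87.0 and 53.6 CPM in negative and 35.2, 29.0, 62.8 and 10.5 CPM in positive samples, overlapping, with a log2 fold change of -1.56 (SE 0.51, adjusted p = 0.0340 by edgeR's quasi-likelihood test). This class held 1898 lower genes of 9126 (20.8%). The Hdc call was lost without negative replicate 2 or 3 or positive replicate 1, 2 or 4, with adjusted p from 0.0589 to 0.0831 in these 5 of 8 fits. In lung it had 71.9, 95.4, 37.0 and 48.3 CPM in negative and 28.4, 35.4, 58.5 and 45.8 CPM in positive samples (-0.92, SE 0.31, adjusted p = 0.0316), lost without either of negative replicates 1 and 2 or positive replicates 1 and 2, with adjusted p from 0.0675 to 0.0865. It was also lost with the replicate block (-0.92, adjusted p = 0.0555).

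Il6 was lower in lung phagocytes, with 12.3, 35.3, 21.8 and 9.60 CPM in negative and 7.31, 9.003, 11.8 and 2.33 CPM in positive samples. The groups overlapped, and the log2 fold change was -1.59 (SE 0.42, adjusted p = 0.0101 by edgeR's quasi-likelihood test, at most 0.0283 when 1 sample was left out), in a class with 2264 lower genes of 9949 (22.8%). The unnamed cluster led by Arg1, Pf4 and Spp1, closest to the macrophage list, is not in this class. It held 92.9%, 39.7%, 50% and 90% of the Il6 UMIs of the lung positive samples. In the lung negative samples it held 51.2%, 11.8%, 10.4% and 39.0%. Over all lung cells the Il6 log2 fold change was 1.15 (SE 0.71) and was not called. Monocyte clusters were 92.4% ± 5.23 of phagocytes in brain negative and 6.92% ± 5.82 in brain positive samples, and 97.9% ± 2.92 and 14.2% ± 13.04 in lung (SD, n = 4 each), so the sorts compare different clusters under 1 class. The summed level of 12 neutrophil genes in the same phagocytes had a median of 42220 CPM in brain negative and 12190 in brain positive samples, and 18910 and 8171 CPM in lung. Their part in the Hdc and Il6 differences was not tested.

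Between tissues, the proteases were higher in bone than in lung among biotin negative cells. edgeR's quasi-likelihood test called 3 of 5 members higher in bone, against 1764 of 13096 genes (13.5%): Cpa3 by a log2 difference of 4.47 (SE 1.08, adjusted p = 0.0101), Mcpt8 by 5.74 (1.60, 0.0189) and Prss34 by 6.06 (1.65, 0.0174). Lung negative samples had 0 marker positive cells and bone negative samples 51. Mcpt8 lost its call without bone negative replicate 3 (adjusted p = 0.0577) or lung negative replicate 4 (0.0504). Without the marker positive cells Mcpt8 alone was called (2.59, adjusted p = 0.0399), with Cpa3 at 0.67 and Prss34 at 1.35. Precursors, which also had Mcpt8, were 26.2% ± 3.28 of granulocytes in bone negative and 0.484% ± 0.567 in lung negative samples (SD, n = 4 each). Their part in the Mcpt8 difference was not tested. Brain against lung, where 1.09% of genes were called, gave 4.45 for Cpa3 (adjusted p = 0.0612), 5.36 for Mcpt8 (0.109) and 6.38 for Prss34 (0.0749). All 3 passed without brain negative replicate 2 (adjusted p of 0.0253, 0.0318 and 0.0184), and Cpa3 passed with the replicate block (4.53, adjusted p = 0.0477), where 1.66% of genes were called higher. The other 4 contrasts called 0 of 5 members, against 0.0229% of genes between bone and brain, 8.09% between bone and liver, 0.0611% between brain and liver and 0.0535% between liver and lung. Cpa3 was higher in bone than in liver with the replicate block (2.77, adjusted p = 0.0445), where 13.6% of genes were called higher, and not without it (2.05, adjusted p = 0.156). Brain negative replicate 1, with 16 of that group's 27 marker positive cells, also had precursors at 50.6% of its granulocytes, against 0.903% to 16.2% in the other 3.

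A further 6 lists of genes around the members, receptors, regulators, mediator enzymes, signalling, ligands and mast cell proteases, were counted in the same all-cell tests. The sorts differed in cell make-up in these tests. Alveolar macrophage-like cells led by Plet1 were 14.9% to 81.7% of cells in lung positive and 0.0325% to 0.873% in lung negative samples. The part of cell make-up in the list results was not tested. In bone and liver 0 genes of any list were called. In brain Hpgds and Ltc4s, the enzymes that make prostaglandin D and leukotriene C, were higher in the positive sort (4.06, SE 0.59, adjusted p = 0.0155, and 4.03, SE 0.80, adjusted p = 0.0351, by edgeR's quasi-likelihood test), as 2 of 7 mediator genes tested, against 2.88% higher among all genes. Both missed the threshold without negative replicate 1 or 4 or positive replicate 4, and Ltc4s also without negative replicate 3 or positive replicate 2 or 3, with adjusted p from 0.0531 to 0.128. In lung, where 11.5% of all genes were higher and 6.8% lower, the same pair was higher (1.60 and 4.55), while Il1rl1 and Il18r1, receptors for IL-33 and IL-18, were lower (-2.44 and -2.50), as were Il2rg, Jak1 and Socs1 of the cytokine signalling list (-1.50, -0.93 and -1.52). Of these Il18r1, Il2rg and Socs1 missed the threshold without any 1 of negative replicates 1, 3 and 4 and positive replicates 1 and 3, and Il2rg and Socs1 also without positive replicate 2, with adjusted p from 0.0518 to 0.0939. Of 6 regulators tested in lung Mitf (1.90) and Runx1 (1.48) were higher and Stat5b (-0.70) was lower, the last lost with library size as the only scaling (-0.45, adjusted p = 0.105) and in 7 of 8 fits without 1 sample, all but that without positive replicate 3. The mast cell chymase Cma1 was lower in lung positive samples (-5.22, SE 1.099, adjusted p = 0.0140). This rests on a low level, as 7 mast cell genes summed to a median of 21.8 CPM in lung negative and 14.5 CPM in lung positive samples. The marker positive cells with mast cell proteases were all in brain.

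In IIA bone, where 23.2% of all genes tested were lower, 5 of 10 IgE receptor and surface genes tested were lower and 0 higher, with a list median of -0.78 against 0.08 over all genes tested. Fcer1a, the IgE-binding chain, had a log2 fold change of -2.93 (SE 0.69, adjusted p = 0.00393 by edgeR's quasi-likelihood test) and Il18r1 -2.71. Of 7 regulators 2 were lower, Gata2 (-1.68) and Stat5b (-1.001), and 2 higher, Cebpa (1.01) and Mitf (1.54). Gata2 and Fcer1a are among the 6 genes that choose the marker positive cells, so their values without those cells say nothing further. Of 7 mediator genes 4 were lower, including Alox5 (-1.93) and its helper Alox5ap (-1.09) of leukotriene synthesis and the histamine receptor Hrh2 (-1.83), and 2 higher, including Ltc4s (2.51). Of 11 receptor and signalling genes of the 3 cytokines 5 were lower and 0 higher, with Il6ra at -1.21 and Stat6 at -0.60, the latter not called when libraries were scaled by size only (-0.36, adjusted p = 0.0659), as was Stat3 (-0.33, and -0.09 so scaled). Tslp was higher (1.56, SE 0.45, adjusted p = 0.0125), 1 of 3 type 2 ligands and growth factors tested. Of the mast cell protease list only Ctsg was tested, also a leading gene of the Prtn3 precursor cluster. It was higher (2.02, SE 0.39, adjusted p = 0.00120 by edgeR's quasi-likelihood test).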

How the data were processed

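Each matrix the authors deposited holds counts of UMIs by gene and barcode, made with Cell Ranger 6.1.2 for the intracardiac samples and 7.1.0 for the pooled IIA matrix, per the file headers, on mm10, per the submitters' processing notes. The intracardiac samples came already split. IIA cells were given to a hashtag, matched by its number, with at least 10 counts and 3 times the next, which assigned 22685 of 26666 barcodes. Cells with at least 500 UMIs, 200 genes and at most 15% mitochondrial UMIs were kept, 55366 of 57065 and 22362 of 22685, and no doublets were removed. Clusters came from scanpy 1.11.5 (2000 variable genes, 30 components, 15 neighbours, Leiden resolution 1.0) and were named only by resemblance to marker lists. Counts were summed per sample, in classes with at least 10 cells of a sample, and tested with edgeR 4.0.16 (quasi-likelihood, TMM, low-count filter, Benjamini-Hochberg, adjusted p under 0.05), with DESeq2 1.42.0 as an alternative, after a test on simulated data. Liver T cells (2 positive samples) and IIA T cells (1) were not fitted. Shared replicate numbers deviated together in bone (correlations 0.448 to 0.738), brain (0.213 to 0.629) and liver (0.256 to 0.501), so they pair samples there. Genes named beside the members were those of the lists that passed the test and, for likeness, the 3 of highest correlation. The lists, like the members, were chosen with earlier results of these data known.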

Additional observations from a re-analysis of the deposited data

Results flagged for a closer look

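In 19 of 69 groups of samples tested for 1 gene, a single sample stood far from the others by Dixon's test, which chance alone does in about 1 of 20 groups, and many of these groups have most samples at or near 0. Liver positive replicate 1, which held all 11 marker positive cells of its group, had 70.7 CPM of Mcpt8, 88.4 CPM of Prss34 and 10.0 CPM of Cpa3, with 587 of its 601 Mcpt8 UMIs in those cells. Cpa3 was also high in bone positive replicate 1 (33.1 CPM), in brain positive replicate 3 (70.0 CPM, from the 1 cell with mast cell proteases), in lung negative replicate 1 (1.47 CPM) and in lung positive replicate 1 (1.85 CPM).

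Il6 stood apart in lung positive replicate 1 (71.8 CPM, 1 of 1750 UMIs in marker positive cells) and liver positive replicate 2 (45.2 CPM, 0 of 317). Il4 did so in IIA bone positive replicate 2 (9.86 CPM, all 36 UMIs in marker positive cells), brain positive replicate 2 (4.98 CPM, 0 of 16) and liver negative replicate 3 (5.07 CPM, 19 of 40). Il13 did so at low counts, with 0.463 CPM in IIA bone positive replicate 3, 0.947 in bone negative replicate 1, 0.421 in bone positive replicate 3, 0.127 in liver negative replicate 3, 0.353 in liver positive replicate 1, 1.56 in lung negative replicate 3 and 0.0410 in lung positive replicate 1.

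IIA barcodes that passed the cell filters but carried no clear hashtag, 3824 in number and in no comparison, also held these RNAs. They included 48 marker positive cells and had 46.7 CPM of Mcpt8, 64.9 of Prss34, 8.66 of Cpa3, 247.2 of Hdc, 1.84 of Il4, 5.73 of Il6 and 0.125 of Il13, against 55.3, 81.3, 12.7, 307.9, 1.41, 5.36 and 0.157 CPM in the cells with a hashtag.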

How the results depend on the processing

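The 4 calls in IIA bone held under DESeq2, no low-count filter, library size as the only scaling, the replicate block and all 12 fits without 1 sample, though library size alone changed all genes from 3412 higher and 2923 lower to 5424 and 1887. Without the marker positive cells 2 members were called there (6335 of 12598 genes called), Hdc and, with its sign reversed, Mcpt8 (1.57). Il6, not called, also changed sign (1.37). Bone against lung kept 1 of 3 calls without those cells (3351 of 13079 genes called). Brain against lung had 0 (143 of 13096 genes called), but 3 with DESeq2 (638 of 13096) and 1 with no filter (195 of 22893). It had 1 with the replicate block (269 of 13096) and 0 to 3 without 1 sample (0 to 615 genes). Liver against lung had 0, but 2 with DESeq2 (111 of 13096 genes, against 7 in the main fit). The brain interaction had 0, but 1 with DESeq2 (210 of 13963 genes, against 42). The block gave 1 in place of 0 for bone against liver (3260 of 13096 genes called). For bone granulocytes it gave 2 in place of 0 (Mcpt8, and Il6 at -2.74, with 759 of 11216 genes called). For lung phagocytes it gave 1 in place of 2 (Hdc lost, 5441 of 9949 genes called), and it changed no other count of members. In lung and IIA bone the numbers' correlations, -0.0916 to 0.481 and 0.0778 to 0.562, did not reach 0.1 in every pair, so the correlations do not pair samples there. Intracardiac samples of 1 number, lung included, had 1 multiplexing oligo list and shared 0 barcodes, and whether they were captured together is not given in the sources used here. With no filter brain phagocytes had 2 in place of 1 (Il4 at 5.53, with 4312 of 17678 genes called). IIA phagocytes then had 1 in place of 0 (3625 of 19428 genes), and unnamed clusters left 1 of 2 in IIA granulocytes (7257 of 10441 genes). Without 1 sample brain phagocytes had 0 to 1 (3106 to 3712 genes called) and lung phagocytes 1 to 2 (4093 to 4787 genes called).

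Some log2 fold changes changed sign. In bone the block gave -0.060 for Mcpt8 and -1.18 for Prss34, library size gave 0.16 for Cpa3, and leaving out the marker positive cells gave -1.87 for Prss34 and 1.97 for Cpa3. In brain the block gave -2.15 for Cpa3. Without those cells brain against lung gave -0.27 for Prss34, and liver against lung -1.31 for Cpa3 and -0.28 for Prss34. Without 1 sample the ranges in bone were -0.60 to 1.22 for Mcpt8, -0.80 to 0.79 for Prss34 and -1.58 to 0.45 for Cpa3, in brain -4.15 to 1.04 for Cpa3, in liver -4.92 to 0.45 for Prss34, -1.11 to 1.60 for Il6 and -0.99 to 0.15 for Hdc, and in lung -0.035 to 1.55 for Il6. The difference in share of marker positive cells ranged from -0.0285 to 0.139 percentage points in bone, -0.173 to 0.127 in liver and -0.495 to -0.271 in IIA bone, which without positive replicate 4 had an exact permutation p of 0.0217, and thinned cells gave -0.539. At Leiden resolution 2 granulocytes held 54.6% of intracardiac Hdc UMIs, 7.55% of Mcpt8 and 57.9% of IIA Hdc, against 62.6%, 9.53% and 66.6%. The cause of these changes was not tested.

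All genes called in bone, brain and liver went from 0, 339 and 0 to 53, 1225 and 431 with DESeq2, to 12, 762 and 0 with the replicate block, and in brain to 705 with library size alone. In IIA the simulated recovery, of genes drawn at random from all tested, was 91% at 4-fold and 58% at 2-fold. The granulocyte class with the unnamed clusters added was chosen after seeing the data.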
